A study of Rattus norvegicus with 6 samples.

Results

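The untreated state of cultured newborn rat heart muscle cells was described from the 3 control samples among the 6 samples of the study. The cells were primary cardiomyocytes of Sprague-Dawley rats, taken per the study's methods from the ventricles of 2-day-old pups by collagenase digestion and pre-plated to remove fibroblasts before seeding on collagen-coated dishes. The control dishes then received serum-free medium for 24 h, and total RNA of each sample was hybridised to 1 Affymetrix rat whole-transcript array. The labels disagree about the controls, since the treatment text gives them plain serum-free medium and the growth text for all samples mentions a hypertrophic agonist. The study asked how a recombinant human cardiotrophin 1 protein changes these cells, and the treated samples were not analysed here. The labels speak of RNA isolated separately for each sample and say nothing of separate cultures or litters, so the spread between the 3 arrays may be technical.

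A newborn ventricular cardiomyocyte still builds its contractile apparatus partly from fetal isoforms, can still divide, and is in the course of changing from glucose to fatty acids as its main fuel. In culture it flattens, keeps beating and deposits matrix, and it is usually accompanied by fibroblasts, vascular smooth muscle and endothelial cells that survive the isolation. Hypertrophic growth in these cells is commonly followed through natriuretic peptides, skeletal actin and other genes of the fetal programme.

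The members were the probe sets that the platform annotation pairs with exactly 1 gene symbol, 15310 of the 29215 on the array. They stand for 14506 genes. Another 323 probe sets carry several symbols and are named nowhere, and 13582 are unnamed in that annotation. Values are log2 units of the robust multi-array average (RMA), a summary of probe brightness, and a difference of 1 unit is a doubling of signal. Probe sets differ in how brightly they report a given amount of RNA. The 423 genes with 2 probe sets show this: the means of the 2 differed by a median of 0.54 log2 units, 155 genes (36.6%) had probe sets more than 1 unit apart, and the median SD between arrays was only 0.078. The order of genes given here is therefore an order of signal and not of RNA amount, and no ratio between genes is given.

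Gene means ran from 1.69 to 12.55, with a median of 6.65 and quartiles of 4.30 and 8.36. There were 927 genes (6.39%) at a mean of 10 or more, 271 at 11 or more and 25 at 12 or more. The table holds no detection calls, so the signal of gene families best known from sense organs served as a yardstick. That they are silent in these cells was assumed and not tested. The olfactory, vomeronasal and bitter taste receptor genes, which serve the sensing of odours, pheromones and bitter substances, were read by 1294 probe sets with a median of 2.79. The 95th percentile of these receptors was 4.31, 4.29 and 4.26 in controls 1, 2 and 3, and is called the silent limit. A gene is called above the limit when it exceeded it in all 3 arrays. By this measure 11384 of the 15310 probe sets (74.4%) and 10711 of the 14506 genes (73.8%) were above the limit. Counts of list members above the limit, also where all were above it, are to be read beside this share of genes. By construction a few receptors lay above it too, the brightest being Or51e1 at 10.54, 10.64 and 10.57. A gene just over the limit may owe its signal to probe composition or cross-hybridisation.

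**Figure D1:**
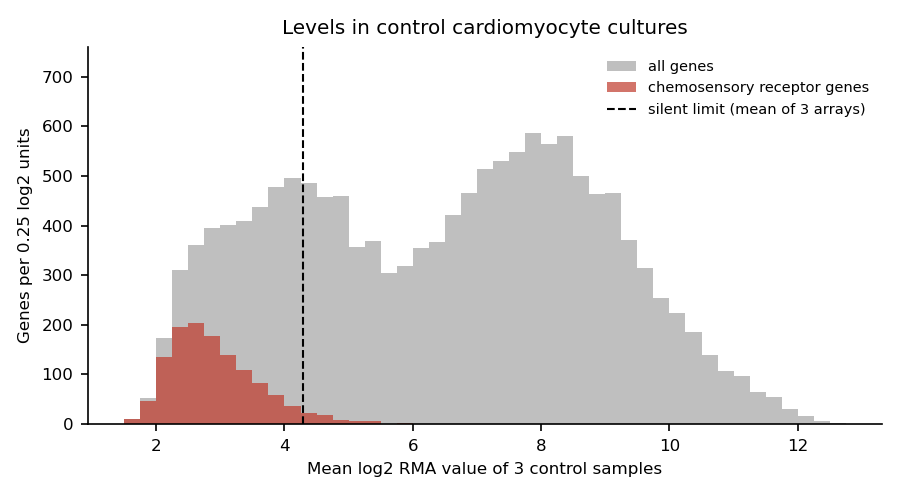
Number of genes (vertical axis, per 0.25 log2 units) by mean log2 RMA value over the 3 control samples (horizontal axis), for all 14506 genes in grey and the 1263 chemosensory receptor genes in red. The dashed line is the mean of the 3 silent limits; nearly all receptor genes lie to its left, and all genes together form a dim and a bright hump.

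The label of the cells was checked against markers. All 20 cardiomyocyte markers were above the limit, with a median of 10.89, which is the 97.9th percentile of all genes. The sarcomere genes among them were bright: cardiac actin Actc1 read 12.24, 12.29 and 12.22 in the 3 arrays, the ventricular light chain Myl3 12.07, 12.09 and 12.07, and the Z-disc crosslinker Actn2 11.68, 11.64 and 11.69. The lineage factors Gata4 (10.37, 10.39 and 10.17), Tbx20 (10.83, 10.90 and 10.80) and Nkx2-5 (9.48, 9.61 and 9.34), which switch on heart muscle genes, were above the limit as well. The dimmest marker was Myh6, the alpha myosin heavy chain of adult rodent ventricle, at 8.68, 8.55 and 8.56. By its markers the label of these cultures therefore holds.

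The cultures also carried signal of other heart cell types despite pre-plating. All 12 fibroblast markers were above the limit (median 8.87, the 81.8th percentile), from the collagen genes Col1a1 (11.65, 11.69 and 11.69) and Col1a2 (11.24, 11.23 and 11.29) and the matricellular Postn (10.86 ± 0.12, SD, n = 3) down to Tcf21 (6.58, 6.42 and 6.40), a transcription factor of cardiac fibroblasts, Pdgfra (6.55, 6.52 and 6.55), their growth factor receptor, and Mfap5 (5.36, 5.26 and 5.29). Collagen genes were thus bright while several lineage markers lay near the median of all genes. All 7 smooth muscle markers measured were above the limit, led by Acta2 (12.30, 12.32 and 12.36), which newborn cardiomyocytes also make, and Tagln (11.49, 11.50 and 11.57). Myh11, the myosin of differentiated smooth muscle, read 7.71, 7.60 and 7.76. Of the 6 pericyte markers 5 were above the limit (83.3%, beside 73.8% of all genes), and Higd1b was not. Pdgfrb had a mean of 9.82 and Cspg4 of 9.32.

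Endothelial markers were fainter but present, 11 of 12 above the limit (91.7%, beside 73.8% of all genes) with a median of 7.32. The receptor Eng was the brightest at 10.53, 10.57 and 10.48, but fibroblasts use it too. The more restricted Pecam1 (7.34, 7.50 and 7.42), Cdh5 (7.31, 7.35 and 7.32), a junction protein between endothelial cells, and Tek (6.79, 7.02 and 7.06), the angiopoietin receptor, stood clear of the limit, Kdr read 5.45, 5.42 and 5.34, and Cldn5 was not above it. The 6 epicardial markers measured were all above the limit, from Krt19 at 4.52 to Msln at 7.71. Of 15 macrophage markers 10 were above the limit (66.7%, beside 73.8% of all genes), a share that does not set them apart: the lysozyme gene Lyz2 had a mean of 7.93 and Adgre1, which encodes F4/80, 6.56, 6.49 and 6.60, but the pan-leukocyte gene Ptprc and the scavenger receptor gene Cd163 were not above it.

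Markers of cells that should be absent had low medians, from 3.50 for lymphocytes to 4.85 for adipocytes, beside 6.65 over all genes. Their shares above the limit ran from 14.3% for red cells to 66.7% for adipocytes, beside 73.8% of all genes. Of 8 lymphocyte markers 2 were above the limit (Cd79b and Lck, the latter at 4.46), of 10 hepatocyte markers 2 (Apoa2 at 4.66 and Serpinc1 at 4.44), of 7 Schwann cell and neuron markers 3 (Dbh, Sox10 and Prph), of 6 adipocyte markers 4 (Retn, Cfd, Cidec and Plin1, all under 5.3 in every array) and of 6 skeletal myoblast markers 3 (Chrna1, Chrnd and Myf5). The defining genes Cd3e, Alb, Adipoq and Myod1 were not above it. Of 7 red cell markers only the globin gene Hbb was above the limit (5.15, 5.67 and 5.43). Its relative Hbb-b1 read 4.27, 5.52 and 4.39, so that control 2 stood apart from the other 2 arrays for this gene. Control 2 was the highest array for Hbb too, with the 3 values about evenly spaced. In bulk RNA, few cells of a type and little RNA per cell cannot be told apart, so no share of cells follows from these levels, and the part of other cells in the genes described next was not tested.

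**Figure D2:**
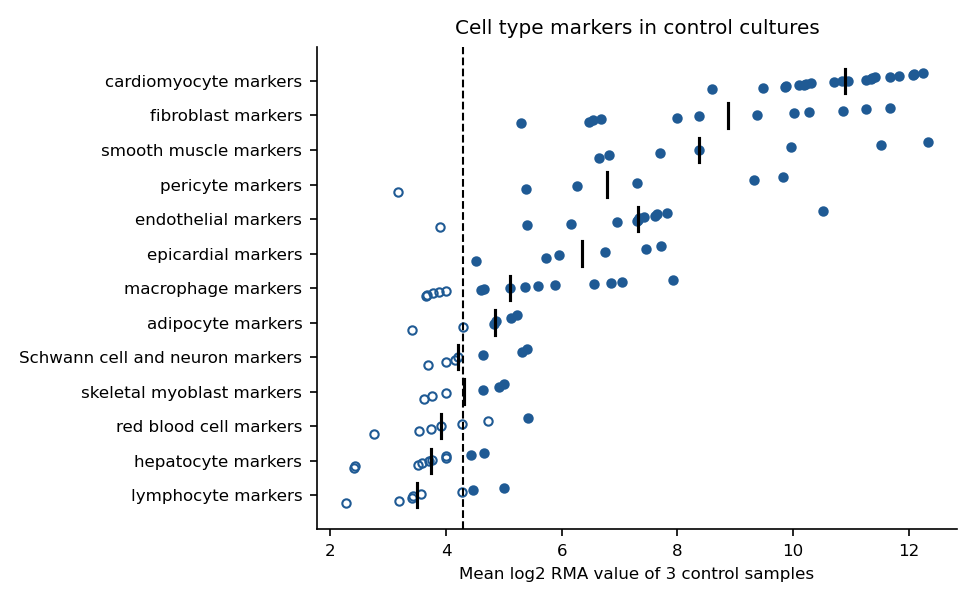
Mean log2 RMA value over the 3 control samples (horizontal axis) of each marker gene of 13 cell types (rows). Filled points were above the silent limit in all 3 arrays, open points were not, black bars are medians and the dashed line is the mean limit; cardiomyocyte, fibroblast, smooth muscle and epicardial markers are all filled, and lymphocyte, hepatocyte and red cell markers are mostly open.

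Chamber markers of ventricle and atrium were both measured. The 5 ventricular genes were all above the limit: Myl3, Myl2 (10.98, 10.97 and 10.87), the homeobox factor Irx4 (9.51, 9.46 and 9.33), the Notch effector Hey2 (7.38, 7.41 and 7.07) and the channel subunit Kcnip2 (mean 6.06). Of 7 atrial genes 6 were above it (85.7%, beside 73.8% of all genes). Among them were the atrial light chain Myl7 (10.70, 10.55 and 10.56) and sarcolipin Sln (8.66, 8.72 and 8.28), an inhibitor of the calcium pump. Bmp10, a growth factor of atrial muscle, was not above the limit (4.26, 4.12 and 4.06). Of 7 pacemaker and conduction genes 5 were above the limit (71.4%, near the 73.8% of all genes). They included the pacemaker channel Hcn4 (8.90, 8.88 and 8.68) and the T-type calcium channel Cacna1g (8.88, 8.82 and 8.56), whereas the sinus node factors Shox2 (mean 3.94) and Isl1 (4.02) were not.

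The brightest genes of the array joined translation, cytoskeleton and contraction. Rps29, a ribosomal protein gene, led at 12.60, 12.56 and 12.48, followed by cytoplasmic actin Actb (mean 12.53), the glycolytic enzyme Gapdh (12.42), Rps20 (12.42), Rps4x (12.40), the intermediate filament Vim (12.35), Acta2 (12.33), ferritin light chain Ftl1 (12.30), Actc1 (12.25) and Actg1 (12.24). The next were the chaperone Hspa8 (12.23), the matrix glycoprotein Sparc (12.17), thioredoxin Txn1 (12.16), the elongation factor Eef1a1 (12.11), phospholamban Pln (12.08), Cox6c (12.08) of the respiratory chain, Myl3 (12.08), the small heat shock protein Cryab (12.06), the endoplasmic reticulum chaperone Hspa5 (12.05) and Atp5f1d (12.04) of the ATP synthase. Heart muscle genes thus sat among housekeeping genes at the top of the scale. Of the 100 brightest genes, 22 encode ribosomal proteins, 10 subunits of oxidative phosphorylation, 6 glucose metabolism and 5 matrix. Another 8 were in the sarcomere lists: Acta2, Actc1, Myl3, Cryab, Ankrd1, Myh7, Actn2 and Des. Of these, Acta2 is also a smooth muscle marker, Cryab a small heat shock protein and Ankrd1 also a member of the hypertrophy-linked list. The 41 others, such as the oxygen store Mb (11.98), were in none of the lists of contraction, energy, matrix, stress and protein upkeep set against them.

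In the sarcomere, the 3 lists of myosins, thin filament and Z-disc genes held 45 measured genes. Of these, 40 were above the limit (88.9%, beside 73.8% of all genes). Several isoforms of fast skeletal muscle were dim. Myh1 (mean 3.90), Myh2 (4.22) and Tnnt3 (4.25) were not above the limit, and Myh4 (4.61), Tnni2 (4.57) and Tnnc2 (4.94) were little above it, whereas the fast forms Mybpc2 (7.29) and Myl1 (7.77) stood well clear of it. The slow-type Mybpc1 (3.97) and the Z-disc gene Myot (3.45) were not above the limit either. The heart forms were bright in every array. The beta heavy chain Myh7 read 11.79, 11.81 and 11.89, troponin T Tnnt2 11.45, 11.38 and 11.43, troponin C Tnnc1 11.39, 11.36 and 11.35, desmin Des 11.65, 11.67 and 11.63, and titin Ttn 10.17, 10.22 and 10.25. The embryonic chain Myh3 (6.88, 6.61 and 6.57) and Myh7b (6.79, 6.65 and 6.43) were also above it. All 9 intercalated disc genes measured, which couple neighbouring cells, were above the limit with a median of 10.43, including the cadherin Cdh2 (mean 10.98), vinculin Vcl (10.95), the gap junction gene Gja1 (10.81), the plaque protein Pkp2 (10.59), Ctnnb1 (10.43), Jup (10.30), Tjp1 (9.90), Gja5 (8.15) and Dsc2 (6.69).

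Pairs of genes that share a function, most of them a fetal or general form and an adult or muscle form, were read side by side. In 16 of 16 pairs measured, both genes were above the limit. Myh7 stood at the 99.7th percentile of all genes and Myh6 at the 78.7th, slow skeletal troponin I Tnni1 (10.88, 10.83 and 10.87) at the 97.8th and cardiac Tnni3 (9.91, 9.81 and 9.85) at the 92.6th. The glucose transporter Slc2a1 (9.90, 9.96 and 9.95) was at percentile 93.2 and the insulin-responsive Slc2a4 (7.01, 7.02 and 6.81) at percentile 53.7. The carnitine palmitoyltransferases, which admit fatty acids to the mitochondrion, read 8.68, 8.51 and 8.53 for the liver form Cpt1a and 9.24, 9.30 and 9.24 for the muscle form Cpt1b. Both forms were therefore measured together in each of these pairs. The other pairs were, by their means, Acta1 (11.28) and Actc1 (12.25), Myl7 (10.60) and Myl2 (10.94), the hexokinases Hk1 (9.97) and Hk2 (7.69), Cox6a1 (11.41) and Cox6a2 (11.84), Cox8a (11.72) and Cox8b (9.55), Ldha (12.01) and Ldhb (11.26), the enolases Eno1 (11.66) and Eno3 (9.06), Pgam1 (11.95) and Pgam2 (7.58), the creatine kinases Ckb (8.64) and Ckm (10.75), the nucleotide carriers Slc25a5 (11.76) and Slc25a4 (11.06), Fabp5 (7.08) and Fabp3 (10.07), and Pdk1 (8.41) and Pdk4 (7.47). Close relatives such as the actins may also share probe signal.

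**Figure D3:**
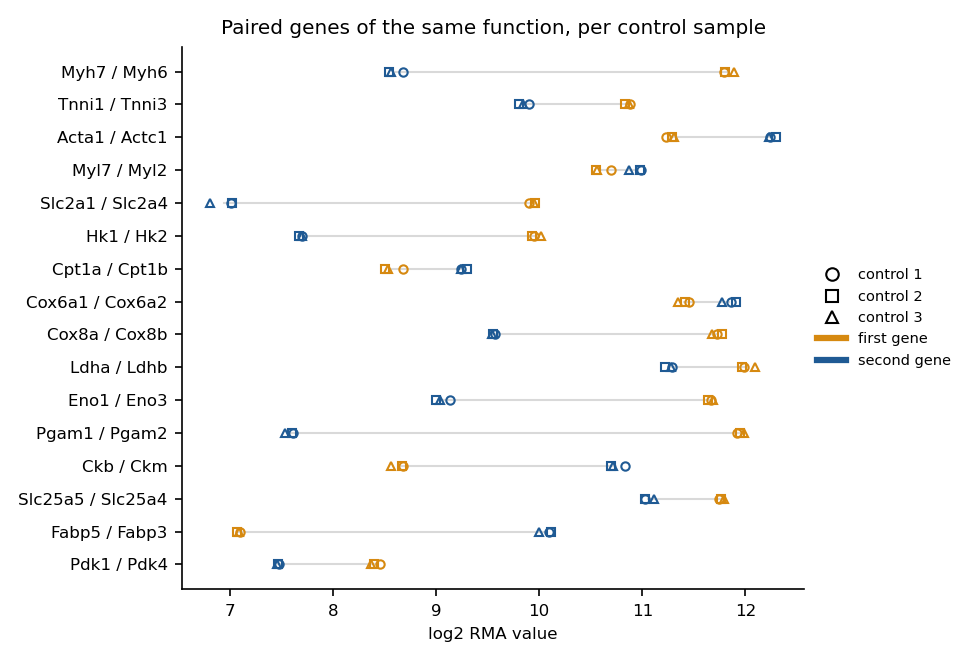
Log2 RMA values (horizontal axis) of 16 pairs of genes with the same function (rows), with the gene named first in orange, the gene named second in blue and 1 symbol for each control sample. The 3 symbols of a gene lie close together, and the distance within a pair is a distance in signal between different probe sets, not an RNA ratio.

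Calcium cycling genes were above the limit in 21 of 22 cases (95.5%, beside 73.8% of all genes), with a median of 8.46. The pump inhibitor Pln read 12.11, 12.09 and 12.05, the store protein Casq2 11.51, 11.53 and 11.52, the pump Atp2a2 11.24, 11.24 and 11.31, the exchanger Slc8a1 10.45, 10.48 and 10.51, and the release channel Ryr2 9.89, 9.85 and 9.87. The core of the cardiac calcium cycle was thus bright with little spread. The skeletal forms Atp2a1 (mean 5.37) and Ryr1 (4.78) were dim and the channel Cacna1d (4.07) was not above the limit. All 17 ion channel subunits measured were above it, with a lower median of 7.10, led by Hcn4, Kcnq1 (8.72), Kcnj5 (8.48), Abcc9 (8.45), Kcnh2 (8.07) and Kcnj3 (7.66), and ending with Kcna5 (4.72).

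Of 17 cardiac transcription factors, 16 were above the limit (94.1%, beside 73.8% of all genes), with a median of 9.22. They were led by Tbx20, Mef2a (10.40, 10.46 and 10.54), Gata4, the serum response factor Srf (9.75, 9.77 and 9.60), Nkx2-5 and Irx4. The least bright were Hopx (mean 7.21), Hand1 (6.16), Mef2b (5.16) and Isl1, a factor of progenitor cells and the sinus node. Mef2d (9.41, 9.28 and 9.05) and Hey2 were the members with the widest spread, and control 3 was the lowest array in both.

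Genes tied to hypertrophic growth were bright in these control samples. The natriuretic peptide genes Nppa (11.88, 11.91 and 11.84) and Nppb (11.92, 11.97 and 11.95) and the stretch-responsive Ankrd1 (11.93, 11.92 and 12.04) were among the 100 brightest genes of the array. Skeletal actin Acta1 read 11.23, 11.29 and 11.31, and the LIM proteins Fhl1 and Fhl2 had means of 11.30 and 10.15. All 15 genes of this list were above the limit (median 9.90), with the immediate early factors Junb (7.76), Atf3 (7.64), Ier2 (6.63) and Fos (6.28) at its lower end. Without a heart sample beside these cultures, what culture, serum withdrawal or the agonist named in the growth text contributed was not tested.

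The 250 bases before the annotated start of Acta1, Myl3 and Nppa are shown. These bright muscle genes hold, or in part lack, 2 of the promoter motifs counted next. The same stretch of Actc1 held neither motif and is not printed. The sequences are from RefSeq on the rat build GRCr8, 5′ to 3′ on the strand of the gene. Capitals mark the TATAAA motif and the CArG box, the serum response factor motif. A CArG box was counted only as CC and GG around a fixed run of A or T. Acta1 lies at chr19:68784195-68784444 on the minus strand, with a CArG box at -94 to -85 and TATAAA at -29 to -24 from the start. Myl3 lies at chr8:119616844-119617093 on the plus strand, with a CArG box at -97 to -88, and Nppa at chr5:163711934-163712183 on the plus strand, with TATAAA at -39 to -34.
Acta1: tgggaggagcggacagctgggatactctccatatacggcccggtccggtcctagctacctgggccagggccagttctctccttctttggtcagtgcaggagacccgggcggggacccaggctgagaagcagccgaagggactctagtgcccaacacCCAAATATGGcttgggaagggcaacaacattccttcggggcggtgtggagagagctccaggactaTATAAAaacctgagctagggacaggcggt
Myl3: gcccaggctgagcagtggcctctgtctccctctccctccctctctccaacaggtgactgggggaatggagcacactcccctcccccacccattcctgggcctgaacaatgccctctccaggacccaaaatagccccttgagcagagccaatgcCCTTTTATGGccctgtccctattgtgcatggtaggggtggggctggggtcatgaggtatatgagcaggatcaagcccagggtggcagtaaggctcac
Nppa: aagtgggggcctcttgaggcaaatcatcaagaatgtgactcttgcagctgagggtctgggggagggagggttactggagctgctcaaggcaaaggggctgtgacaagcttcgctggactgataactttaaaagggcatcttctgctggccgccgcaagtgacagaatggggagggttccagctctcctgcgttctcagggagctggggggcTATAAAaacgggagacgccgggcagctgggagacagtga

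Promoters of this length were found for 11950 of the 14506 genes, and each motif was searched on both strands; the printed bases show it where it lies on the strand of the gene or reads the same motif from both. TATAAA was present in 11.2% of all promoters, in 6.89% of those of genes above the limit and in 23.7% of the others. By construction the others include most of the receptors that set the limit, so the contrast is in part theirs. Of the 1080 receptor promoters, 35.7% held TATAAA. Of the 9 hypertrophy-linked genes with a promoter 7 held it (Nppa, Nppb, Acta1, Fhl1, Fhl2, Rcan1 and Junb), and of the 38 sarcomere genes 9 did, including the dim Myh1, Myh2, Mybpc1 and Tnni2. A CArG box was present in 1.18% of all promoters, in 4 of the 9 hypertrophy-linked genes (Acta1, Fhl1, Fhl2 and Egr1) and in 4 of the 38 sarcomere genes (Acta1, Myl3, Ldb3 and Myh4). The site of the MEF2 factors was present in 0.485% of all promoters and in 3 of the 38 sarcomere genes (7.89%), namely Myoz2, Ttn and Mybpc3. The motifs were not particular to the muscle lists. Of 15 heat shock genes 2 held the MEF2 site (13.3%), and none of 59 ribosomal protein genes did. TATAAA was in 5 of 16 matrix genes (31.25%) and in none of 18 calcium cycling genes. A match is a description of the letters and not of binding.

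The CpG content of the promoter moved with the level. The CpG ratio, the count of CpG over that expected from the C and G content, had a median of 0.732 in genes above the limit and 0.217 in the others. The receptors that set the limit, most of them among the others by construction, had a median of 0.124. They were kept in all these comparisons. With the genes ordered by this ratio into 10 equal bins, 25.7% of those in the lowest bin were above the limit, 50.6% in the third, 83.0% in the fifth and 95.5% in the highest. The ribosomal protein genes had a median ratio of 0.930 and the sarcomere genes, bright though many are, 0.301. Probe composition was not tested as a part of this pattern.

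Cardiotrophin 1 belongs to the interleukin 6 family, whose members signal through the shared chain gp130 to Janus kinases and STAT factors. The genes of this pathway were present in the control samples, which by the treatment text received no recombinant cardiotrophin 1. The gp130 gene Il6st read 10.58, 10.58 and 10.56, the leukaemia inhibitory factor receptor Lifr, which pairs with it, 8.07, 7.99 and 8.01, and the oncostatin M receptor Osmr 8.28, 8.32 and 8.30. The receptor chains Il11ra1 (mean 7.59), Il6r (6.34), Il27ra (5.46) and Cntfr (5.40) completed the 7 measured, all above the limit. Among the ligands, Lif (7.64, 7.64 and 7.25), Ctf1, the gene of rat cardiotrophin 1 itself (6.64, 6.54 and 6.36), Cntf (6.25, 6.34 and 6.22), Osm (mean 5.62), Clcf1 (5.55) and Il11 (5.11) were above the limit, and Il6 was not (4.69, 4.28 and 4.47, with control 2 under its limit). Among the ligands above the limit, Lif and Ctf1 had the widest spread, with control 3 the lowest array in both.

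Downstream, 18 of 19 Janus kinase, STAT and inhibitor genes were above the limit (94.7%, beside 73.8% of all genes), with a median of 8.45. Stat3, the factor most used by gp130, read 10.36, 10.40 and 10.39, followed by Jak1 (9.86, 9.96 and 10.01), the phosphatase Ptpn11 (9.66, 9.72 and 9.73), Pias1 (mean 9.30), Socs2 (9.10) and Stat6 (8.84). The feedback inhibitor Socs3, a target of Stat3, read 6.74, 6.66 and 6.59. Stat4, a factor of lymphocytes, was not above the limit at 3.55, 3.50 and 3.39.

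Receptors for other growth signals were uneven in level, with 15 of 18 above the limit (83.3%, beside 73.8% of all genes). Their median of 6.78 was near the 6.65 of all genes. The insulin-like growth factor receptor Igf1r read 10.01, 10.02 and 9.92, the insulin receptor Insr 9.83 on average, with control 3 the lowest at 9.68, Fgfr1 9.40, 9.33 and 9.30, and the alpha 1A adrenergic receptor Adra1a, through which phenylephrine acts, 9.23, 9.38 and 9.22. The angiotensin receptor Agtr1a read 5.80, 5.96 and 5.79. Adrb3 (mean 3.95), Agtr2 (3.39) and Agtr1b (3.38) were not above the limit.

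Genes of cell death and of casein kinase 2 were nearly all above the limit. The study followed active caspases as proteins and blocked casein kinase 2 with an inhibitor. The casein kinase 2 subunits Csnk2a1 (9.69, 9.65 and 9.78), Csnk2a2 (10.44, 10.47 and 10.41) and Csnk2b (10.51, 10.57 and 10.42) were bright. Caspase 9, the initiator of the intrinsic pathway, read 7.06, 7.22 and 6.95 for its gene Casp9, and its platform gene Apaf1 had a mean of 8.08. With the inhibitor Xiap at 11.02 and cytochrome c Cycs at 11.01, 19 of 20 genes of this list were above the limit, and the inflammatory caspase Casp1 (3.15) was not. The brightest genes of the BCL2 family were Bnip3 (10.34), Bnip3l (10.05), Mcl1 (9.92), Bcl2 (9.80, 9.79 and 9.35), Bak1 (9.55) and Bcl2l1 (8.57). Of this family, 16 of 17 genes were above the limit (94.1%, beside 73.8% of all genes), and Bcl2a1 (3.78) was not. All 9 NF-kB genes were above it, from Rela (9.32, 9.38 and 9.18), Nfkbib (8.54), Nfkb1 (8.38, 8.40 and 8.38), Chuk (8.16) and Nfkb2 (7.93) to Nfkbia (7.59), Ikbkg (7.56), Ikbkb (7.40) and Nfkbie (7.37).

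Angiogenic ligands and receptors were all above the limit, 19 of 19 with a median of 7.67. The ligands Vegfb (9.95, 9.99 and 10.04) and Vegfa (9.64, 9.59 and 9.44), the co-receptors Nrp2 (mean 9.80) and Nrp1 (9.37), Fgf1 (9.49) and Pdgfa (9.25) led the list, and Apln (5.73), Kdr (5.40), Angpt2 (5.33) and Angpt1 (4.76) closed it. Ligands thus stood at both ends of this order of signal, and the co-receptors near its upper end. Galectin 3 is a protein that the study followed in cardiac fibroblasts. Its gene Lgals3 read 9.08, 8.99 and 8.95 in these cardiomyocyte cultures.

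Mitochondrial genes were present without exception among the subunits. All 75 subunit genes of oxidative phosphorylation were above the limit, the median being 10.17 over complex I, 10.64 over the ATP synthase and 10.79 over the complexes between them. Cox6a2, the muscle form of a cytochrome oxidase subunit, read 11.86, 11.90 and 11.77, and Cox4i2 (mean 5.44), a form of lung, was the dimmest. All 19 genes of pyruvate dehydrogenase and the tricarboxylic acid cycle (median 10.07) and all 11 energy transfer genes (median 10.73) were above the limit as well, led by Mdh2 (11.58) and Slc25a5 and ending with Pdhx (8.42) and Ckmt1 (5.86). Their regulators were less bright, with 15 of 15 above the limit and a median of 7.84. The coactivator Ppargc1a read 8.96, 8.99 and 8.89, the fatty acid sensor Ppard 10.14, 10.20 and 10.02, Ppara 8.05, 8.01 and 7.82, and Pparg, which belongs to fat cells, 5.45, 5.40 and 5.37.

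Both main fuels were served. Of 29 genes of glucose uptake, glycolysis and lactate, 28 were above the limit (96.6%, beside 73.8% of all genes), and Hk3 (3.92) was not. Their median was 9.17. The brightest were Gapdh (12.42, 12.44 and 12.40), Ldha (11.98, 11.97 and 12.09), Pgam1, Aldoa (mean 11.84), Eno1 and Gpi (11.60). Of 26 genes of fatty acid uptake and oxidation, 25 were above the limit (96.2%), with a median of 8.62. The brightest were the trifunctional protein gene Hadha (10.34, 10.38 and 10.50), Etfb (10.14), Acadl (10.07), Fabp3 (10.07), Etfa (9.88) and Hadhb (9.64, 9.82 and 10.04). Fabp4, a carrier of fat and endothelial cells, was not above the limit (3.38), and the uncoupler Ucp3 was little above it (4.45).

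Mitosis and DNA replication genes gave signal in the cultures. Division itself was not measured, nor which cells this RNA came from. All 20 mitosis and DNA replication genes measured were above the limit (median 8.64), among them the ribonucleotide reductase genes Rrm2 (10.46, 10.47 and 10.56) and Rrm1 (10.37), the clamp Pcna (9.76), Cdc20 (9.13), the cyclin Ccna2 (9.09) and Top2a (9.01, 9.01 and 9.13), and at the lower end Bub1 (8.18), Bub1b (7.05), Aurka (6.81) and Birc5 (6.69). All 14 cyclins of G1, their kinases and inhibitors were above it too, led by Ccnd2 (11.41), Cdk4 (11.20), Ccnd1 (10.43), the brake Cdkn1a (10.42, 10.46 and 10.22), Ccnd3 (10.36) and Cdk6 (9.56). The other inhibitors ran from Cdkn1b (8.98), Cdkn2b (7.82) and Cdkn2c (7.28) down to Cdkn1c (6.18) and Cdkn2a (5.42). In the median mitosis and replication gene control 1 lay 0.05 units under and control 3 0.05 units over the mean of the 3 arrays.

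Matrix genes were bright, all 23 above the limit with a median of 10.65. Sparc (12.17, 12.14 and 12.21), the proteoglycan Bgn (12.01, 12.02 and 11.95), thrombospondin Thbs1 (11.96, 11.94 and 11.99), fibronectin Fn1 (11.70, 11.71 and 11.73), Col1a1 and Ccn1 (mean 11.52) led it. The lower end was Col5a1 (8.43), Dcn (8.37), elastin Eln (7.91, 7.40 and 7.77) and Lum (6.68). Elastin was the member with the widest spread, with control 2 the lowest array.

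Genes of protein synthesis and upkeep were bright too. All 72 cytosolic ribosomal protein genes were above the limit with a median of 11.15, the 98.5th percentile. So were all 68 mitochondrial ribosomal protein genes (median 8.67) and 36 of 37 proteasome subunit genes (97.3%, beside 73.8% of all genes, median 9.43). All 18 heat shock genes were above it (median 10.38): besides Hspa8 and Hspa5, the muscle small heat shock genes Hspb7 (11.20, 11.21 and 11.18) and Hspb6 (10.81, 10.85 and 10.64) stood out. All 26 antioxidant genes were above it (median 9.74), with catalase Cat at 11.28, Prdx1 at 11.23 and haem oxygenase Hmox1 at 8.95. At the lower end of the heat shock genes were the muscle genes Hspb8 (8.76) and Hspb3 (8.49) and the co-chaperones Dnajb1 (8.26) and Hsph1 (8.22).

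Inflammatory genes were mostly dim with 1 bright exception. Of 20 chemokine and cytokine genes 13 were above the limit (65.0%, beside 73.8% of all genes), with a median of 5.35. But Ccl2, which draws monocytes, read 11.98 ± 0.029 (SD, n = 3). Cxcl1 (mean 8.66) and Ccl7 (8.18) followed, and Tnf (4.39), Il1a (3.20) and Il18 (2.63) were not above the limit. Of 19 interferon response genes 17 were above it (89.5%, beside 73.8% of all genes), and Bst2 and Mx1 were not. The median of this list, 6.67, was near the 6.65 of all genes. Its brightest members were Ifi27 (9.32), Cxcl10 (7.89), Irf9 (7.65), Irf7 (7.38), Mx2 (7.09, 7.38 and 7.53) and Ifih1 (7.29).

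**Figure D4:**
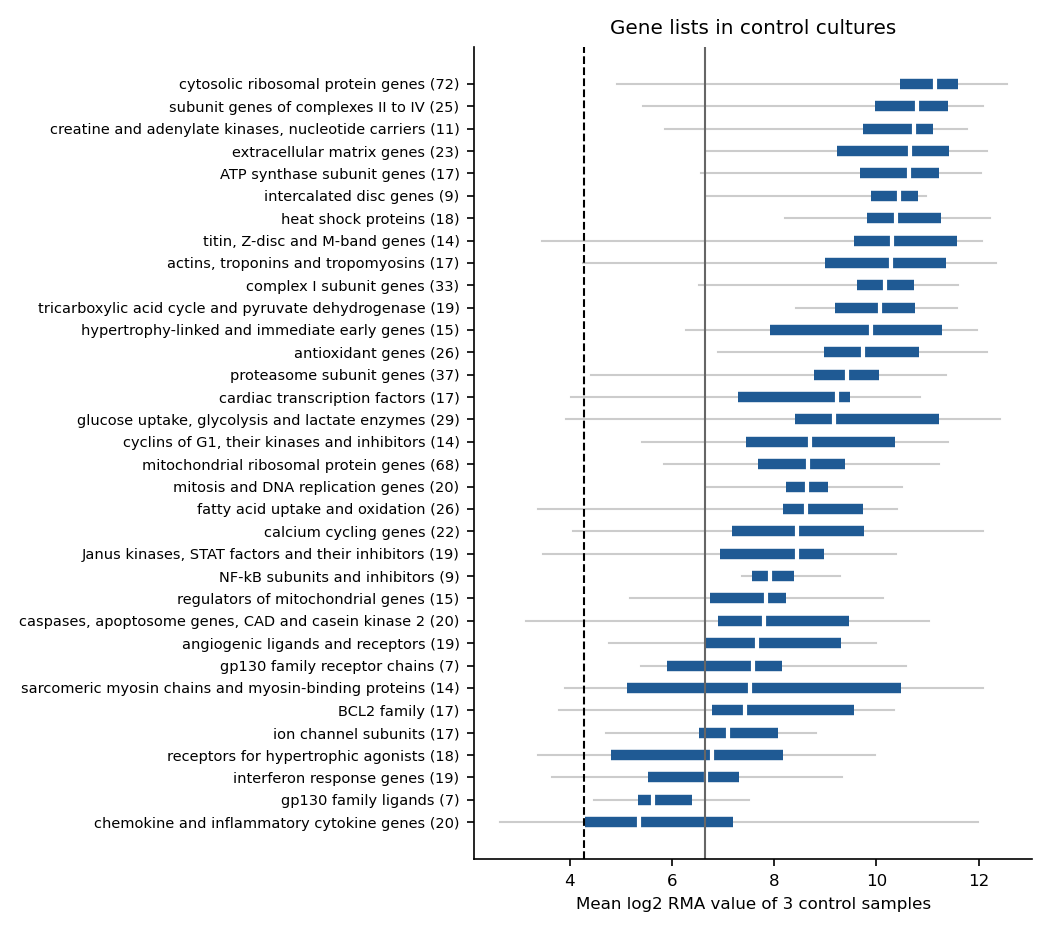
Mean log2 RMA values over the 3 control samples (horizontal axis) of 34 gene lists (rows, number of measured genes in brackets). Blue bars span the quartiles, white ticks are medians, thin lines run from the lowest to the highest gene, the solid vertical line is the median of all genes (6.65) and the dashed one the mean silent limit; ribosomal protein genes are at the top and chemokine genes at the bottom.

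The 3 arrays were close to each other. Pearson's r over all 29215 probe sets was 0.9975 for controls 1 and 2, 0.9969 for 1 and 3 and 0.9974 for 2 and 3, a description across probe sets of arrays that RMA had normalised. The median SD of a named probe set was 0.078 units, or 1.06-fold, and the 95th percentile of the SDs was 0.19. Among the 10711 genes above the limit, 1814 (16.9%) differed by more than 0.25 units between their highest and lowest array, 58 (0.542%) by more than 0.5, and none by more than 1. With probe sets ordered by level into 10 equal bins, the median SD was 0.085 in the lowest bin, 0.094 in the fourth and 0.053 in the highest, so that bright genes were read with the least spread.

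The widest range among genes above the limit was 0.73 units, for Vof16 (9.36, 9.05 and 8.63). The other genes with the largest SD were Lbx1 (5.10, 5.17 and 5.74), Gipr (6.15, 5.56 and 5.54), Fuom (6.05, 6.32 and 5.63), the receptor Olr1454, Pou2af1, Ybey, Trim46, Gng13, the complement factor Cfp (6.92, 6.63 and 6.28), the potassium channel Kcnk3 (7.32, 7.05 and 6.68) and the tubulin cofactor Tbcb (9.58, 9.14 and 8.96). In 8 of these 12 control 1 was the highest and in 9 control 3 the lowest array. The 6 with the smallest SD, at most 0.0013 units, were Pofut2, Exoc2, Sphkap, Tinf2, Lztfl1 and C1qb.

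Small shifts of whole arrays differed with the level. Control 3 was the lowest array in 40.5% of named probe sets, and control 1 was the highest in 39.3%, but with each array centred on its median control 3 was the lowest in 32.3%, an alternative chosen after seeing the data. Of the 200 most variable genes above the limit, control 3 was the lowest in 134 and control 1 the highest in 118. In the third bin control 2 was the low array, at -0.036 from the mean, with control 3 0.011 over it. In the fifth bin the median probe set lay 0.036 over the mean in control 1 and -0.036 from it in control 3, while in the highest bin control 3 was 0.013 over it. Some gene lists moved by more than these bins. Atrial markers differed from the mean by a median of 0.07, 0.01 and -0.08 in controls 1, 2 and 3, cardiac transcription factors by 0.04, 0.02 and -0.07, heat shock genes by -0.04, -0.03 and 0.05 and interferon response genes by -0.04, 0.07 and -0.04. Over 59 lists of at least 5 genes the medians ran from -0.05 to 0.07 in control 1, from -0.12 to 0.07 in control 2 and from -0.08 to 0.05 in control 3. Whether culture, RNA or array set these small shifts was not tested.

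**Figure D5:**
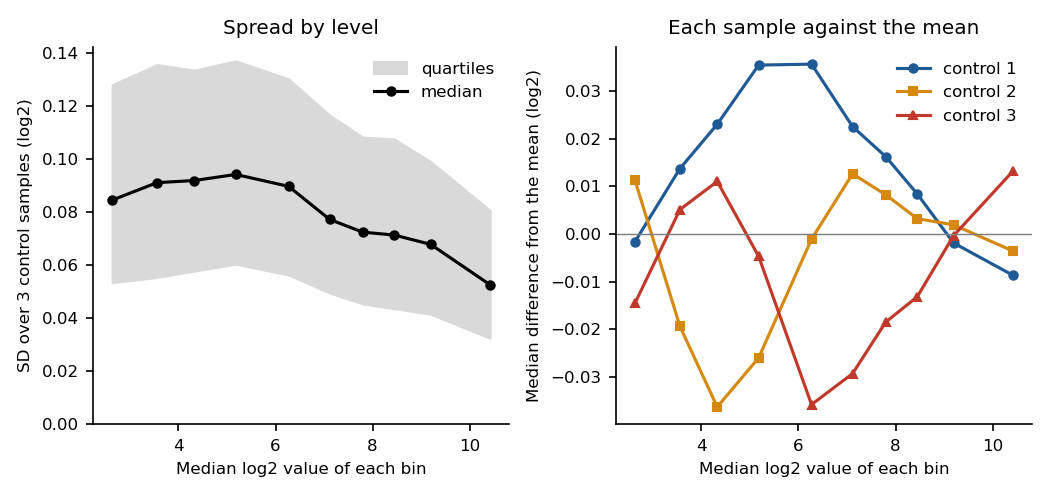
Left, SD over the 3 control samples (log2 units) in 10 equal bins of named probe sets ordered by mean level, as median and quartiles; right, median difference of each control sample from the mean of the 3 in the same bins. The spread is smallest in the brightest bin, and controls 1 and 3 lie on opposite sides of 0 in the middle of the scale.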

How the data were processed

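The 3 control arrays of 6 samples were grouped by their titles. The deposited log2 values were made by the authors using RMA in Affymetrix Expression Console, per the labels (versions and genome build not given in the sources used here). RMA corrects background, normalises quantiles between arrays and summarises probes, which narrows differences between arrays and compresses dim values. Whether RMA was run on all 6 arrays together is not given in the sources used here. Values were used as deposited, with Python 3.11.15, pandas 2.3.3, numpy 2.4.6, scipy 1.17.1 and matplotlib 3.10.9. Symbols from the platform annotation were updated through RefSeq GRCr8 by Entrez gene identifier (15279 of 15310 probe sets matched). Of several probe sets of a gene (527 genes), the brightest by its mean in the 3 controls was used.

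With 1 group, no test was made, and values are means and SDs over 3 arrays, whose number limits the precision. The steps for level and spread were tested on simulated data. Members and gene lists were chosen with earlier results of these data known. The genes named are the 20 brightest and, above the limit, the 12 with the largest and 6 with the smallest SD. All measured genes were named of lists of up to 12, of the pairs and of proteins the study stained, blotted or reported on. Of longer lists, the 6 highest, the 4 lowest and members not above the limit where these are up to 6 were named. Other genes were added, and lists shortened in the text, after values were seen. Alternatives were another silent limit, another normalisation, leaving out each array, the mean of a gene's probe sets and another base of the percentile. Listed genes without a probe set of exactly 1 symbol were not analysed here.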

Additional observations from a re-analysis of the deposited data

Results flagged for a closer look

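The unnamed probe sets, which enter no list above, carried signal: 7505 of 13582 (55.3%) were above the silent limit in all 3 control arrays, beside 74.4% of the named ones, with a median of 4.72, and 474 had a mean of 10 or more. What they measure is not known here.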

How the results depend on the processing

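Of 149 alternative values of 18 results, 128 stayed within 1.5 times the reported count or within the spread. Quantile normalisation and centring keep the order within each array, so they could not change the counts above the limit. The 128 include those fixed counts. The choice of the silent families mattered most. With keratin-associated protein and defensin genes in their place the limits were about 7.1 (7.13, 7.08 and 7.09), 6737 probe sets (44.0%) were above them, and the markers above were 0 for Schwann cells and neurons, adipocytes, hepatocytes, lymphocytes, red cells and skeletal myoblasts, 1 for macrophages, 2 for epicardium and 3 for pericytes. With the 99th percentile of the chemosensory receptors, 9778 probe sets (63.9%) were above the limit, and 0 adipocyte, hepatocyte, lymphocyte, red cell and skeletal myoblast markers. Asking for at least 1 array in place of 3 gave 5 Schwann cell and neuron markers and 3 red cell markers. Leaving out control 1 or control 2 gave 2 red cell markers, and leave-outs ranged from 1 to 2. The share of probe sets with control 3 lowest was 35.1% after quantile normalisation over the 3 arrays and 32.3% after centring each array on its median, both chosen after seeing the data. The median of 41 of 52 lists was above that of all genes, and of 40 to 43 under the alternatives. No paired analysis was possible because 1 group was described with no test. Signal near the limit is not evidence of expression.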

Other observations

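The genes below were chosen after their values were seen. Among the chemosensory receptors, Or51e1 stood alone, at 10.54, 10.64 and 10.57, while the next, Olr59, read 6.55, 6.57 and 6.16. Steroid, thyroid and retinoid receptor genes were above the silent limit in 8 of 10 cases (80.0%, beside 73.8% of all genes). The glucocorticoid receptor Nr3c1 read 9.42, 9.38 and 9.50 and the thyroid hormone receptor Thra 8.80, 8.73 and 8.67. The oestrogen receptor Esr2 (mean 3.94) and the progesterone receptor Pgr (3.28) were not above the limit.

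Secreted growth factor and hormone genes were above the limit in 14 of 16 cases (87.5%, beside 73.8% of all genes). They were led by Fstl1 (11.27), Tgfb3 (10.90) and Tgfb2 (10.70). The iron hormone gene Hamp, best known from liver, read 9.37, 9.34 and 8.86, with control 3 the lowest. All 10 splicing factor genes linked to heart muscle were above the limit, with the titin splicing factor Rbm20 at 8.64, 8.51 and 8.55 and Rbm24 at 9.91, 9.77 and 9.86. All 13 imprinted genes were above it too, led by Igf2r (10.64) and Grb10 (10.45), with the growth genes Igf2 at 6.93 and H19 at 6.60.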
